A study of Mus musculus with 2 samples.

Results

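The BMP and TGF-beta signalling genes described here are 38 genes chosen by symbol among 28001 features: 12 ligands, 9 receptors, 7 antagonists, 4 latent TGF-beta binding proteins, the 2 inhibitory Smads and the 4 Id genes. They were followed across cell classes of adult mouse skeletal muscle in 2 single-cell RNA-seq libraries. Both came from C57BL/6J mice homozygous for Hic1CreERT2 and for a Rosa26 tdTomato reporter that Cre switches on, so the label marks cells that expressed Hic1 at the time of tamoxifen, and their progeny. For E10-P56, dams received 7.5 mg of tamoxifen by gavage at embryonic day 10 and muscle was taken at postnatal day 56. For the adult pulse, animals received 5 daily doses of 2.5 mg at 8 weeks of age, and the labels give the same day 56 for its collection. The paper gives a later collection for it, so the age is uncertain. The methods describe pooled tibialis anterior muscles, so animals cannot be told apart within a library, and a sort for tdTomato that excluded cells with blood or endothelial lineage markers. There was no library without Cre.

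BMPs, activins and TGF-betas are secreted dimers that bring together type I and type II receptor kinases, which phosphorylate Smad proteins that enter the nucleus. BMP signals act mostly through one set of Smads and raise Id genes, and TGF-beta and activin signals act through another set. Antagonists bind ligands outside the cell, latent TGF-beta binding proteins hold TGF-beta in the matrix, and inhibitory Smads damp the response from within. In muscle and tendon these signals are known for roles in matrix production, tendon and bone formation, vessel wall maturation and muscle size.

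The 8236 barcodes of E10-P56 carried 67460919 UMIs, and 69153173 came from 9195 barcodes of the adult pulse. After a minimum of 1500 UMIs and a limit of 10% mitochondrial UMIs, 6087 and 8567 cells remained, with medians of 7648 and 7344 UMIs. The libraries shared 15 barcodes, 11 of them among the cells kept. Cells were clustered without the 38 genes, and clusters were named from marker genes, with "-like" added since the names were rebuilt. The largest class was fibroblast-like (4083 cells of E10-P56, 7082 of the adult pulse). The others, given in the same order, were tenocyte-like (208 and 560 cells), osteochondral-like (60 and 65), pericyte-like (430 and 399), smooth muscle cell progenitor (SMCP)-like (252 and 145), vascular smooth muscle cell (VSMC)-like (217 and 28), perineurial-like (173 and 36), endoneurial-like (60 and 147), Schwann-like (140 and 21), endothelial-like (20 and 52) and cycling-like (326 and 29). One further cluster of 121 cells with mural and fibroblast markers stayed unnamed and was not used. The mitochondrial limit weighed most on VSMC-like cells of E10-P56, which numbered 667 without it and 217 with it. Fibroblast-like cells of that library numbered 4268 and 4083, and adult VSMC-like cells 41 and 28. The VSMC-like levels of E10-P56 given below thus come from a minority of such cells. The name SMCP-like rests on 4 markers against the other named cells. The summed level of all SMCP markers was 2890 CPM there and 3768 CPM in pericyte-like cells of E10-P56, and 2886 and 3815 CPM in the adult pulse.

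Levels are UMIs of a gene summed over a class, per 1000000 UMIs of that class (CPM), with the exact 95% Poisson interval in parentheses. The interval covers counting error only. There was 1 library per labelling time, so no test was possible and a 2-fold rule was used instead. Labelling time, library, Cell Ranger version (5.0.0 against 3.0.2, the older one used for the adult pulse) and perhaps age at collection differ together and cannot be told apart, and the labels name 2 versions of the 10x chemistry without saying which library had which. The paper's methods name the later chemistry for adult muscle. The paper credits the adult-pulse data it shows to an earlier study, so a separate experiment may also differ between the libraries. Fibroblast markers had UMIs in every class. The 12 of them summed to 42425 CPM in fibroblast-like cells of E10-P56, to 5285 CPM in pericyte-like cells and to 4137 CPM in endothelial-like cells. In the adult pulse the sums were 46412, 9476 and 9575 CPM. The part of such counts in low levels of a gene outside fibroblast-like cells was not tested. Immune markers summed to at most 11 CPM in any class.

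All 38 genes had UMIs in both libraries, and 34 had at least 100 UMIs in each. Bmp6 and Grem1 were under this limit in both libraries, Nog in E10-P56 and Bmpr1b in the adult pulse. The class with the highest level stood at least 2-fold over the next for 6 of 35 members in E10-P56, where 16.4% of all genes tested did so, and for 10 of 35 in the adult pulse (14.4%). The highest class was the same in both libraries for 18 of 34 members (37.1% of all genes). It was the same and at least 2-fold over the next in both libraries for 4 of 34 (5.66%), namely Bmp3, Bmp7, Ltbp2 and Id4. With 2-fold in 1 or both libraries, 7 of 34 (13.6%) met the rule, Smad7, Id1 and Id2 being added. By role these 7 were 2 of 11 ligands, none of the 8 receptors, none of the 5 antagonists, 1 of 4 latent binding proteins, 1 of 2 inhibitory Smads and 3 of 4 Id genes.

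By class, 8.83% of all genes were highest in endothelial-like cells of both libraries, and so were 4 members (Bmpr2, Acvr2a, Smad7 and Id1). The members numbered 2 in fibroblast-like (1.91%), tenocyte-like (1.73%), osteochondral-like (1.65%), VSMC-like (2.77%), perineurial-like (3.62%) and endoneurial-like cells (2.24%), 1 in SMCP-like (0.856%) and cycling-like cells (4.27%), and 0 in pericyte-like (4.8%) and Schwann-like cells (4.45%). Fibroblast-like cells count as 1 class in all ranks of classes. Single clusters of them stood above the highest class for some members, and examples are given below.

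**Figure D1:**
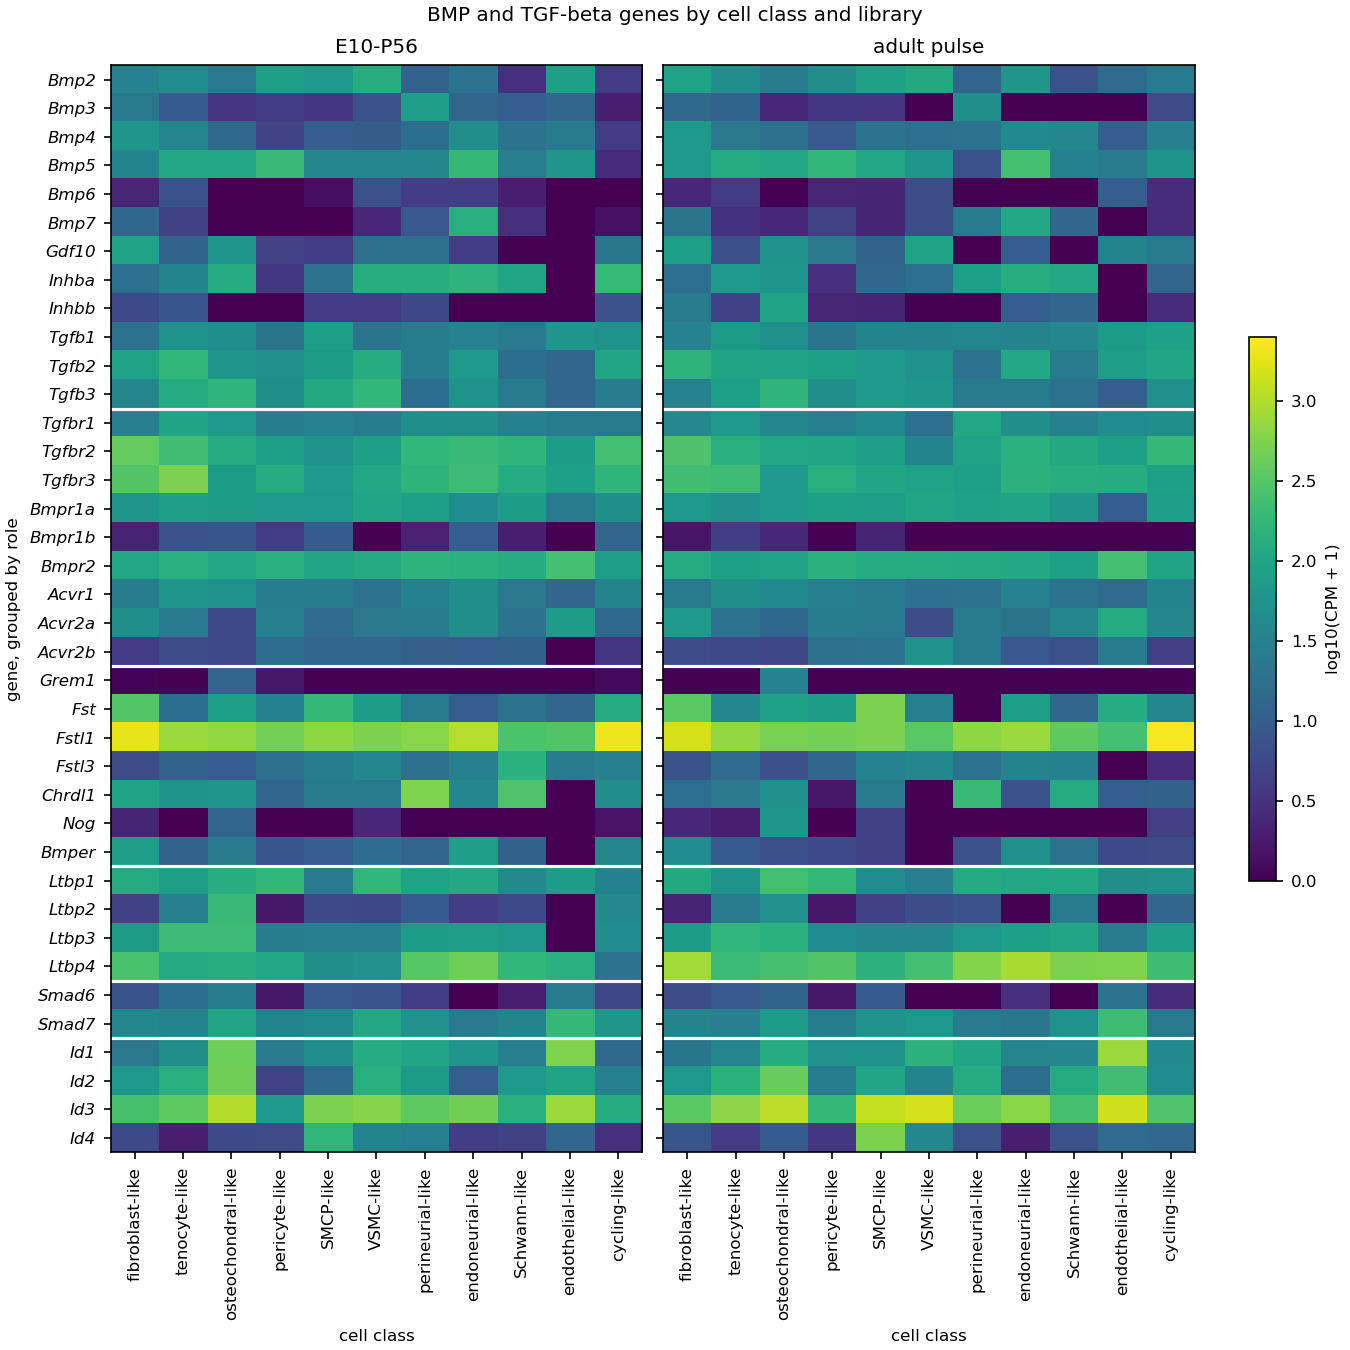
Level of each of the 38 genes (rows, white lines between roles) in 11 cell classes (columns) of E10-P56 (left) and the adult pulse (right), as log10(CPM + 1). Id4 is brightest in SMCP-like cells and Bmp7 in endoneurial-like cells in both libraries.

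Among the ligands, 2 BMPs had their highest class level in cells of the nerve, with all fibroblast-like cells taken as 1 class. Fibroblast-like cluster 4, described below, held more Bmp3 than perineurial-like cells in both libraries. Bmp7, a ligand of the osteogenic BMP group, was counted at 137 CPM (99.3 to 183) in endoneurial-like cells of E10-P56 and at 112 CPM (92.7 to 134) in those of the adult pulse. The next class was fibroblast-like cells in E10-P56, at 12.6 CPM (11.6 to 13.7), and perineurial-like cells in the adult pulse, at 23.5 CPM (6.40 to 60.2) on 4 UMIs. The UMIs lay in 15 of 60 and in 58 of 147 endoneurial-like cells. At a clustering resolution of 1.0 the endoneurial-like level was 23.8 CPM in E10-P56 and 54.0 CPM in the adult pulse, so it depends on where that cluster is drawn. Bmp3, a BMP that does not activate the usual BMP receptors and can oppose other BMPs, was highest in perineurial-like cells. It stood there at 77.7 CPM (60.9 to 97.7) in E10-P56 and 47.0 CPM (20.3 to 92.6) in the adult pulse, 3.47-fold and 3.37-fold over fibroblast-like cells. The adult value rests on 8 UMIs in 3 of 36 cells, 5 of them in 1 cell, and it was 6.35 CPM when each library was clustered alone.

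Bmp4, a ligand known for roles in limb and vessel development, peaked in fibroblast-like cells. Its level there was 62.0 CPM (59.7 to 64.4) in E10-P56 and 67.8 CPM (65.7 to 69.9) in the adult pulse. Endoneurial-like cells came next, at 46.6 CPM (26.1 to 76.8) and 41.9 CPM (30.6 to 56.1), and the 2 classes overlapped in E10-P56 within counting error. Pericyte-like cells had 3.92 CPM (1.44 to 8.53) and 7.82 CPM (4.04 to 13.7). Bmp5, a close relative of Bmp7, showed another order. In E10-P56 it stood at 202 CPM (180 to 226) in pericyte-like and 183 CPM (139 to 236) in endoneurial-like cells, and at 179 CPM (158 to 201) and 239 CPM (211 to 271) in the adult pulse. Fibroblast-like cells had 32.6 CPM (30.9 to 34.3) and 63.6 CPM (61.5 to 65.7). Pericyte-like cells thus ranked first or second of the classes for Bmp5 and last or next to last for Bmp4, with Bmp7 at 0 UMIs in E10-P56 and at 3.91 CPM (1.44 to 8.51) in the adult pulse.

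**Figure D2:**
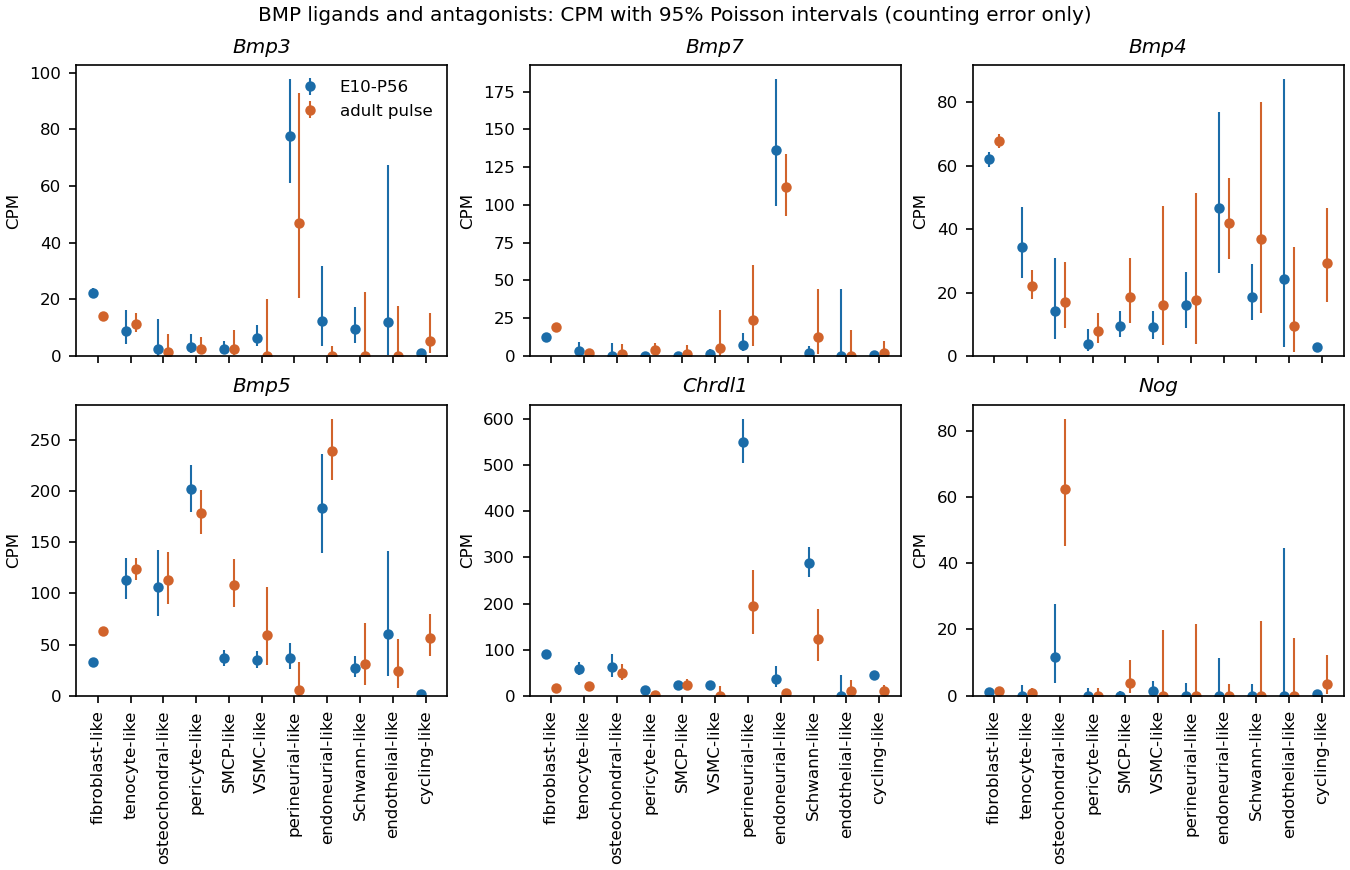
CPM (vertical axis, linear) of 4 BMP ligands and 2 antagonists in 11 cell classes of E10-P56 (blue) and the adult pulse (orange), with 95% Poisson intervals as bars. Bmp3 and Chrdl1 peak in perineurial-like cells, Bmp7 in endoneurial-like cells and Nog in osteochondral-like cells, and intervals are widest in the classes with fewest cells.

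Bmp2, a strong inducer of bone, was highest in VSMC-like cells of both libraries, at 131 CPM (116 to 148) and 114 CPM (70.3 to 174). The second rank differed, being held in E10-P56 by pericyte-like cells, at 84.9 CPM (70.9 to 101), and in the adult pulse by fibroblast-like cells, at 93.2 CPM (90.8 to 95.7), within the interval of the first. Gdf10, also called BMP3b, had 92.0 CPM in fibroblast-like cells of E10-P56 and 83.0 CPM in those of the adult pulse. VSMC-like cells of the adult pulse stood at 91.9 CPM, but all 17 of those UMIs came from 1 of 28 cells. Bmp6, an inducer of hepcidin in liver, was at most 6.18 CPM in any class of E10-P56 and 9.50 CPM in the adult pulse.

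The activin chains differed between the libraries in some classes and not in others. Inhba, which forms activin A, was highest in cycling-like cells of E10-P56, at 191 CPM, and stood at 12.0 CPM on 7 UMIs in those of the adult pulse. The cycling-like cluster was led by Tnc, Cthrc1 and Serpinb2 ahead of Mki67, with a median of 27305 UMIs per cell for E10-P56 and 15313 for the adult pulse, and the part of these in the value was not tested. In endoneurial-like cells Inhba was 155 CPM and 132 CPM, and in Schwann-like cells 103 CPM and 110.2 CPM, against 16.4 CPM and 16.7 CPM in fibroblast-like cells. Inhbb, the chain of activin B, had 0 UMIs in osteochondral-like cells of E10-P56 and 92.0 CPM (71.0 to 117) in those of the adult pulse. Those 65 UMIs lay in 27 of 65 cells, and the level was at least 13.0-fold higher than 3 counts would give in E10-P56. They are under the limit of 100 UMIs for a ratio between libraries, so Inhbb is not among the members compared in that class below.

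The 3 TGF-beta ligands had UMIs in every class of both libraries. Tgfb1, the best known of them in fibrosis, ranged from 18.1 to 80.3 CPM over the classes of E10-P56 and from 19.6 to 86.0 CPM over those of the adult pulse. Tgfb3, a ligand with a role in tendon formation, was 2-fold or more over fibroblast-like cells in tenocyte-like, osteochondral-like and SMCP-like cells of both libraries. Its level in osteochondral-like cells was 168 CPM in each library, against 34.7 and 31.0 CPM in fibroblast-like cells. They were the highest class of the adult pulse. In E10-P56 VSMC-like cells were highest, at 180 CPM, overlapping osteochondral-like cells within counting error. Tgfb2 was highest in tenocyte-like cells of E10-P56, at 178 CPM, and in fibroblast-like cells of the adult pulse, at 164 CPM.

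No receptor was 2-fold over the next class in both libraries. Tgfbr2, the TGF-beta type II receptor, was highest in fibroblast-like cells, at 385 and 278 CPM, and lower by 2-fold or more in 7 classes of both libraries, namely osteochondral-like, perineurial-like, Schwann-like and endothelial-like cells and the 3 mural classes (pericyte-like, SMCP-like and VSMC-like). Tgfbr3, the co-receptor betaglycan, reached 542 CPM in tenocyte-like cells of E10-P56, where fibroblast-like cells had 298 CPM, and the adult values were 211 and 228 CPM. Tgfbr1, the type I receptor for TGF-beta, was highest in tenocyte-like cells of E10-P56, at 94.5 CPM, and in perineurial-like cells of the adult pulse, at 106 CPM on 18 UMIs. Bmpr2, the BMP type II receptor, was highest in endothelial-like cells, at 242 CPM on 20 UMIs and 237 CPM on 50 UMIs. Among the classes Acvr2a, a type II receptor for activins and some BMPs, was also highest there, at 72.6 CPM on 6 UMIs and 123 CPM on 26 UMIs. Fibroblast-like cluster 5 held more Acvr2a, at 162 CPM (155 to 168) with both libraries summed. In endothelial-like cells Bmpr1a, a BMP type I receptor, was at its lowest, at 24.2 and 9.50 CPM on 2 UMIs each, while its highest level, in VSMC-like cells, was 102 and 97.4 CPM. Acvr1, the type I receptor ALK2, was highest in tenocyte-like cells, at 59.2 and 46.3 CPM. Acvr2b, the other activin type II receptor, was highest in pericyte-like cells of E10-P56, on 23 UMIs, and reached 54.1 CPM on 10 UMIs in VSMC-like cells of the adult pulse. Bmpr1b, a type I receptor of cartilage, was at most 12.4 CPM in E10-P56 and 3.27 CPM in the adult pulse.

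Of the 5 antagonists tested in both libraries, 2 (Chrdl1 and Fstl1) had the same highest class in each. Chrdl1, a chordin-like protein that binds BMPs, was highest in perineurial-like cells and next in Schwann-like cells of both libraries. In E10-P56 the levels were 551 CPM (505 to 601) and 288 CPM (257 to 322), and in the adult pulse 194 CPM (133 to 272) and 122 CPM (74.8 to 189). Fibroblast-like cells had 89.6 CPM (86.7 to 92.4) and 16.5 CPM (15.5 to 17.6). After each cell was thinned to 1500 UMIs, 43.9% of perineurial-like cells of E10-P56 had a UMI of Chrdl1, 30.7% of Schwann-like, 8.87% of fibroblast-like and 1.86% of pericyte-like cells. Without thinning the shares were 68.8%, 62.9%, 28.4% and 3.02%. The perineurial markers summed to 7222 CPM in perineurial-like and 2444 CPM in Schwann-like cells of E10-P56, and their part in the Schwann-like value was not tested. Among the classes, perineurial-like cells thus held the highest levels of the BMP opponent Bmp3 and of the BMP binder Chrdl1. Their level of Bmp2 was 10.6 CPM in E10-P56 and 11.8 CPM in the adult pulse, 2-fold or more below fibroblast-like cells, as was Bmp4. Other members went another way. The antagonists Fst, Fstl1 and Bmper were also 2-fold or more lower there in both libraries, and the BMP target Id1 was 2-fold or more higher.

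Nog, which encodes the BMP binder noggin, was highest in osteochondral-like cells, at 11.8 CPM (3.84 to 27.6) on 5 UMIs in E10-P56 and at 62.3 CPM (45.2 to 83.6) on 44 UMIs in the adult pulse. The adult UMIs lay in 23 of 65 cells. No other class had more than 3 UMIs in E10-P56 except fibroblast-like (1.22 CPM) and cycling-like cells (0.520 CPM), and none exceeded 3.74 CPM in the adult pulse. Grem1, a BMP antagonist of the gremlin family, was seen in the same class, at 11.8 CPM on 5 UMIs in 3 cells and at 31.1 CPM on 22 UMIs in 4 cells. Grem1 had 0 UMIs in every other class of the adult pulse. Of the adult Grem1 UMIs, 11 came from 1 cell. Both genes lie under the limit of 100 UMIs in 1 or both libraries.

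Fst, the activin binder follistatin, was highest in fibroblast-like cells of E10-P56, at 312 CPM, and in SMCP-like cells of the adult pulse, at 538 CPM. SMCP-like cells of E10-P56 had 183 CPM and adult fibroblast-like cells 342 CPM. Fibroblast-like clusters 5 and 6 held more Fst than any class, at 681 and 622 CPM with both libraries summed. Fstl3, a follistatin relative, stood at 149 CPM in Schwann-like cells of E10-P56, in 78 of 140 cells, and at 30.6 CPM on 5 UMIs in those of the adult pulse. Among the classes Fstl1, a secreted glycoprotein related to follistatin, was highest in cycling-like cells and next in fibroblast-like cells of both libraries. Its class levels ran from 276 to 2052 CPM in E10-P56 and from 242 to 2327 CPM in the adult pulse. Fibroblast-like cluster 3, nearly all of E10-P56, held 2130 CPM with both libraries summed. Bmper, a secreted modulator of BMP activity, was highest in fibroblast-like and endoneurial-like cells, at 80.2 and 77.6 CPM in E10-P56 and at 42.6 and 50.3 CPM in the adult pulse.

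Of the latent binding proteins, Ltbp2, a relative that is found on elastic fibres, was highest in osteochondral-like cells. E10-P56 had 194 CPM (154 to 240) there, and the adult pulse 50.9 CPM (35.7 to 70.5). The next classes were cycling-like cells at 38.9 CPM (35.1 to 43.1) and Schwann-like cells at 24.5 CPM (6.67 to 62.7), and the adult intervals overlapped. Over the alternatives tried, the osteochondral-like level ranged from 109 to 275 CPM in E10-P56 and from 28.9 to 60.7 CPM in the adult pulse. Ltbp3, which escorts TGF-beta out of the cell, was highest in tenocyte-like cells, at 215 and 171 CPM, and next in osteochondral-like cells, at 210.3 and 146 CPM. Ltbp1 was highest in pericyte-like cells of E10-P56, at 176 CPM, and in osteochondral-like cells of the adult pulse, at 236 CPM. Among the classes Ltbp4, which also organizes elastic fibres and modifies muscular dystrophy in mice, was highest in endoneurial-like cells, at 447 and 907 CPM. Fibroblast-like clusters 9 and 0 held more, at 1447 and 1137 CPM with both libraries summed.

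The inhibitory Smads and the Id genes are known as targets of these signals. Smad7, an inhibitor of TGF-beta receptor signalling, was highest in endothelial-like cells, at 181 CPM (102 to 299) on 15 UMIs and 218 CPM (160 to 291) on 46 UMIs. In E10-P56 VSMC-like cells came next with 112 CPM (97.6 to 127), and in the adult pulse osteochondral-like cells with 69.3 CPM (51.3 to 91.7). The intervals of the first and next class overlapped in E10-P56. Of the adult UMIs, 16 came from 1 cell. Smad6, its counterpart in BMP signalling, was at most 26.0 CPM in E10-P56 and 19.0 CPM in the adult pulse, and its 2 highest classes were osteochondral-like and endothelial-like cells in each library.

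Id1, a helix-loop-helix protein that blocks DNA binding by its partners, was highest in endothelial-like cells, at 544 CPM (397 to 728) and 774 CPM (660 to 903). Osteochondral-like cells came next in E10-P56, at 449 CPM (387 to 517), overlapping the first. In the adult pulse they stood at 126 CPM (101 to 155), and VSMC-like cells at 151 CPM (101 to 219). Fibroblast-like cells were near the bottom in both, at 21.3 and 19.8 CPM. Pericyte markers summed to 8323 CPM in the 20 endothelial-like cells of E10-P56 and to 1734 CPM in the 52 of the adult pulse, and endothelial markers to 8589 and 10055 CPM. The part of these markers in the Id1 level was not tested.

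Id2 was highest in osteochondral-like cells, at 456 CPM (394 to 525) and 412 CPM (366 to 462). VSMC-like cells followed in E10-P56 with 139 CPM (123 to 157), and endothelial-like cells in the adult pulse with 228 CPM (168 to 302). Both were apart from the first beyond counting error. The level in E10-P56 fell to between 280.1 and 313 CPM when 4 of the alternatives placed more cells in that class. For Id3 the same 4 classes held the highest levels in both libraries. In E10-P56 these were osteochondral-like (1013 CPM), endothelial-like (762 CPM), VSMC-like (603 CPM) and SMCP-like cells (534 CPM). In the adult pulse they held 1141, 1382, 1460.3 and 1268 CPM. Pericyte-like cells had the lowest Id3 of all classes, at 67.3 CPM (54.9 to 81.6) and 181 CPM (161 to 204), and so differed from the other mural classes.

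Id4, as the other Id proteins a helix-loop-helix inhibitor, had one class above all others. SMCP-like cells held 172 CPM (156 to 189) in E10-P56, and those of the adult pulse 530.5 CPM (481 to 583). VSMC-like cells came next, at 33.4 CPM (25.9 to 42.5) and 37.9 CPM (15.2 to 78.0). All other classes stood at or below 28.7 CPM in E10-P56 and 14.2 CPM in the adult pulse. The UMIs lay in 119 of 252 and 83 of 145 SMCP-like cells, and the highest cell gave 5.30% and 11.5% of them. After thinning to 1500 UMIs, 18.3% and 40.0% of SMCP-like cells had a UMI of Id4 (47.2% and 57.2% unthinned), against 0.930% and 0.752% of pericyte-like cells (1.16% and 0.752% unthinned). Over the alternatives the SMCP-like level ranged from 133 to 231 CPM and from 508 to 638 CPM. Where mitochondria were limited to 5%, no cluster took the SMCP-like name in either library, and with each library clustered alone none did in the adult pulse.

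**Figure D3:**
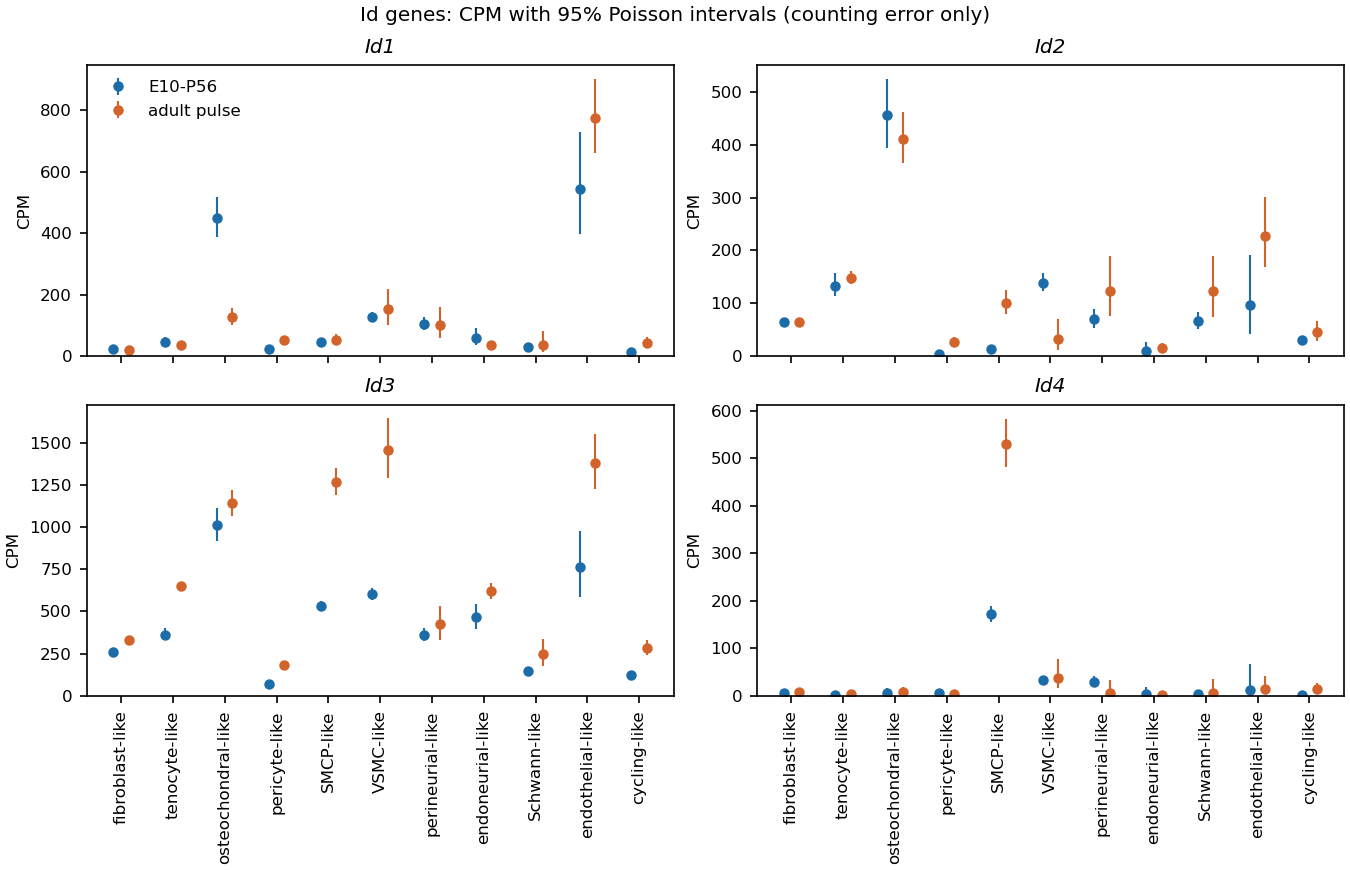
CPM (vertical axis, linear) of the 4 Id genes in 11 cell classes of E10-P56 (blue) and the adult pulse (orange), with 95% Poisson intervals as bars. Id4 stands apart in SMCP-like cells, Id2 in osteochondral-like cells and, in the adult pulse, Id1 in endothelial-like cells, while Id3 is high in 4 classes and low in pericyte-like cells.

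The promoters of Id2, Id3 and Id4 are shown because these genes had different highest classes in the adult pulse although all are known as BMP targets. In E10-P56 Id2 and Id3 shared their highest class, osteochondral-like cells. The adult lead of Id3, VSMC-like over endothelial-like cells, lay within counting error. The sequences are the 250 bases before the RefSeq transcript start on GRCm38.p6, read in the direction of the gene, with each match to GGCGCC, a GC-rich Smad-binding sequence, in capitals. They lie at chr12:25096093-25096342 on the minus strand (Id2), chr4:136143572-136143821 on the plus strand (Id3) and chr13:48260866-48261115 on the plus strand (Id4). In the GENCODE annotation Id2 spans 25093799-25097140 and Id3 spans 136143497-136145755, so both of these windows lie inside the annotated gene. The Id4 window lies before its gene, which starts at 48261228. Other transcript starts were not examined. The table of promoters held no entry for Id1.
Id2: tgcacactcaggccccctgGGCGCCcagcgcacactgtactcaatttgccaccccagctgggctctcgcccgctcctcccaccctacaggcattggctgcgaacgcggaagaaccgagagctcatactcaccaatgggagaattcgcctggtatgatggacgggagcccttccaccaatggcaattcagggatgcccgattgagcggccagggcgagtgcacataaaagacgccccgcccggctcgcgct
Id3: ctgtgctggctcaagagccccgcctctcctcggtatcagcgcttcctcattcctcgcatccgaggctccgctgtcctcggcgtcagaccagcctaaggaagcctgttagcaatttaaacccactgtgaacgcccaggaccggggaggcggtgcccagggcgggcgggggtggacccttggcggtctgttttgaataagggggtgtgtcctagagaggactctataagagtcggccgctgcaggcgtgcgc
Id4: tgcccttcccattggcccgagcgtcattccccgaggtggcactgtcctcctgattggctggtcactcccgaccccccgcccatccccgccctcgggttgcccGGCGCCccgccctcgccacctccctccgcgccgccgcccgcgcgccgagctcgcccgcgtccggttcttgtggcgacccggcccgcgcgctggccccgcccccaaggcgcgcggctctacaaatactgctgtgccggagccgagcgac

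GGCGCC, which reads the same on both strands, occurred once in Id2, from 231 bases before the start, once in Id4, from 148 bases before it, and not in the Id3 window. Of all 32851 promoters of this length, 9.59% held it. Of the 38 genes, 28 had an entry, with 34 promoters, and 8 of the 34 held the motif. They belong to 7 genes: Bmpr1a, Bmpr2, Grem1, Id2, Id4, Ltbp4 and Tgfbr1. The motifs were counted separately. CAGAC, a Smad-binding sequence, on either strand, occurred in 42.2% of all promoters and in 17 of the 34, with 2 matches in Id3. The E-box CANNTG occurred in 66.2% of all promoters and in 14 of the 34. A match is a description of these letters, and none was tested against the levels.

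Each class was also set against fibroblast-like cells. In pericyte-like cells 14 of 33 members were 2-fold or more lower in both libraries, where 11% of all genes were, and 2 were higher (10.1%). The 14 were Bmp3, Bmp4, Bmp7, Gdf10, Inhba, Inhbb, Tgfbr2, Fst, Fstl1, Chrdl1, Bmper, Ltbp4, Smad6 and Id2, and the 2 were Bmp5 and Acvr2b. The median log2 ratio of the members was -1.23 for E10-P56 and -0.99 for the adult pulse, beside 0.26 in each for all genes. In SMCP-like cells 11 of 33 were lower (7.82%) and 6 higher (6.45%), the higher ones being Tgfb3, Acvr2b, Fstl3, Id1, Id3 and Id4. In VSMC-like cells 9 of 33 were lower (7.28%) and 6 higher (6.8%), namely Acvr2b, Fstl3, Smad7, Id1, Id3 and Id4. Bmp4, Bmp7, Tgfbr2, Fstl1, Bmper and Ltbp4 were lower in all 3 mural classes. The share of all genes that were lower in the 3 at once was not counted.

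In osteochondral-like cells 9 of 34 were higher (4.01%) and 9 lower (5.37%). The higher ones were Inhba, Tgfb3, Ltbp2, Ltbp3, both inhibitory Smads, Id1, Id2 and Id3, and the lower ones included Bmp3, Bmp4, Tgfbr2, Tgfbr3 and Fst. In tenocyte-like cells 6 of 34 were higher (4.51%), namely Tgfb1, Tgfb3, Fstl3, Ltbp2, Ltbp3 and Id2, and 8 lower (8.12%). Tenocyte markers summed to 6102 and 2624 CPM in the osteochondral-like cells, against 26685 and 18330 CPM in tenocyte-like cells, and their part in the genes that both classes share was not tested. In endothelial-like cells 6 of 33 were higher (10.2%), Smad6 among them on fewer than 3 counts in E10-P56, and 9 lower (4.89%). In perineurial-like cells 6 were higher (7.58%) and 9 lower (4.52%), in endoneurial-like cells 4 higher (3.9%) and 4 lower (3.5%), in Schwann-like cells 3 higher (8.22%) and 7 lower (5.89%), and in cycling-like cells 1 higher (3.1%) and 9 lower (5.68%), each of 33. The higher ones in perineurial-like cells were Bmp3, Inhba, Acvr2b, Fstl3, Chrdl1 and Id1. The lower ones there were Bmp2, Bmp4, Gdf10, Tgfb2, Tgfbr2, Acvr2a, Fst, Fstl1 and Bmper.

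Within fibroblast-like cells, levels of some of the genes differed between the 9 clusters, which were formed without the 38 genes. From the lowest to the highest cluster, both libraries summed, Acvr1 differed by 1.57-fold and Fstl1 by 1.81-fold. Gdf10 differed by 100.0-fold, Nog by 116-fold and Bmp3 by 157-fold, and Bmp7 ran from 0 to 57.3 CPM. Most clusters are nearly all of 1 library, so values are given within each library. Bmp4 was highest in cluster 0, led by Smoc2 and Hsd11b1, and next in cluster 2, led by Aldh1a2. In E10-P56 these clusters held 204 and 148 CPM, and in the adult pulse 142 and 113 CPM, the first E10-P56 value resting on 26 cells. The lowest Bmp4 level was in cluster 5, led by Car3 and Apoe, at 14.96 and 12.8 CPM. Bmp5 was highest in cluster 2, at 91.1 and 142 CPM, and next in cluster 0, at 86.2 and 119 CPM. Bmp3 and Bmp7 were both highest in cluster 4, led by Smpd3. Bmp3 stood there at 144 CPM in 36 cells of E10-P56 and at 62.6 CPM in the adult pulse, and Bmp7 at 72.1 and 57.0 CPM. Perineurial-like cells held 77.7 and 47.0 CPM of Bmp3, and their adult interval covers the value of cluster 4. The Bmp7 levels lie under the 137 and 112 CPM of endoneurial-like cells, but above those at a resolution of 1.0. Cluster 3, led by Krtdap and Il1r2, came next for Bmp3 in both libraries, at 59.1 and 29.4 CPM. Gdf10 was highest in cluster 9, with Fmo2 and Gdf10 itself among its leading genes, at 864 and 724 CPM. Its lowest level was in cluster 1, led by Cd55 and Pcsk6, at 12.5 and 7.53 CPM. Bmp2 was highest in cluster 1, at 149.9 CPM in 18 cells of E10-P56 and 144 CPM in the adult pulse. VSMC-like cells, the highest class for Bmp2, held 131 and 114 CPM.

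In each library, leaving aside the 2 adult cells of cluster 12, the 2 highest levels of each of Id1, Id2, Id3 and Id4 were found among clusters 5, 6 and 9, which are also the 3 clusters with under 90% of their cells from 1 library. With both libraries summed, Id1 stood at 89.3 CPM (82.9 to 96.1) in cluster 6, led by Clu and Mgp, and at 44.2 CPM in cluster 5, while in cluster 9 it was 29.1 CPM in E10-P56 and 11.8 CPM in the adult pulse. For Id3 these 3 clusters were also the highest within E10-P56, at 417, 408 and 555 CPM, with cluster 3 next at 257 CPM. In the adult pulse they held 753, 622 and 779 CPM and cluster 4 held 397 CPM. Acvr2a and Fst were also highest in cluster 5 of each library, with both summed at 162 and 681 CPM. Chrdl1 was highest in clusters 9 and 3, at 176 and 168 CPM, and Ltbp4 in cluster 9, at 1447 CPM.

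**Figure D4:**
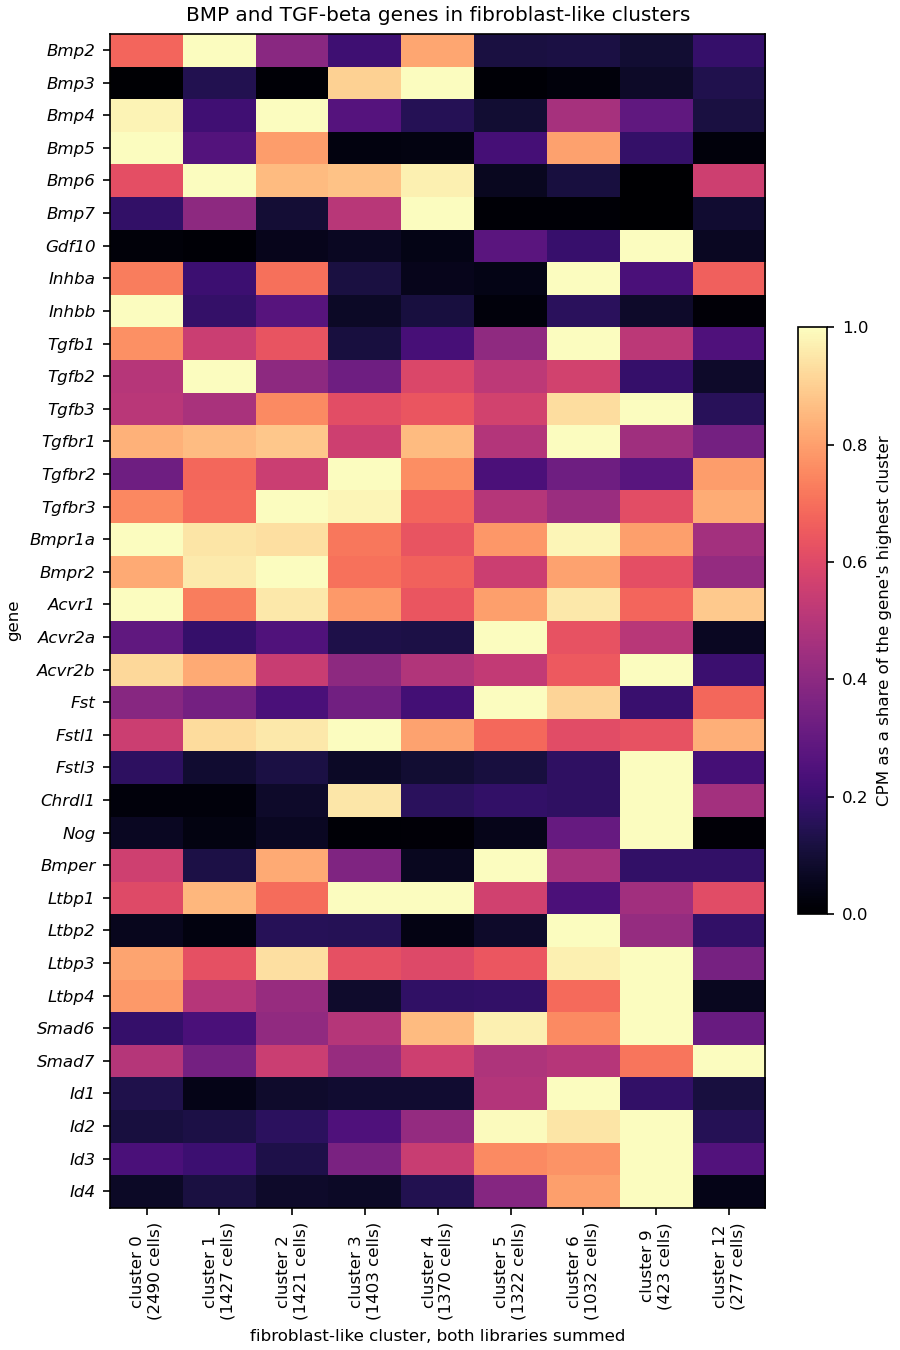
CPM of each gene in 9 fibroblast-like clusters, both libraries summed, as a share of that gene's highest cluster, for the 36 genes with at least 100 UMIs in these cells. The 4 Id genes are brightest among clusters 5, 6 and 9, Bmp4 and Bmp5 are bright in clusters 0 and 2, and Bmp3 and Bmp7 are brightest in cluster 4.

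Between the libraries, 3 of 36 members were at least 2-fold higher in adult pulse than in E10-P56 fibroblast-like cells, where 4.26% of all genes were, and 2 were lower (4.27%). Inhbb rose from 4.79 to 25.0 CPM, a ratio of 5.21 (4.49 to 6.06), Ltbp4 from 268 to 838 CPM, a ratio of 3.13 (3.06 to 3.19), and Bmp2 from 31.5 to 93.2 CPM, a ratio of 2.96 (2.79 to 3.14). Chrdl1 stood at 89.6 CPM in E10-P56 and 16.5 CPM in the adult pulse, 5.42-fold (5.05 to 5.83) higher in E10-P56. Ltbp2 stood at 3.64 and 1.25 CPM, 2.92-fold (2.19 to 3.91) higher in E10-P56. The parentheses give exact 95% intervals of the ratio of counts, counting error only. Of the fibroblast-like cells, 75.1% lay in clusters with at least 90% of their cells from 1 library.

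Ltbp4 was higher in the adult pulse in all 11 classes, by 1.74-fold to 11.8-fold, and by 2-fold or more in 8 of them. It was also higher in all 7 fibroblast-like clusters that held at least 20 cells of each library, by 1.77-fold to 4.40-fold. Chrdl1 was lower in the adult pulse by 2-fold or more in each of the 5 classes with at least 100 UMIs, and lower in all 7 of those clusters. Bmp2 was higher in 6 of the 7 clusters, but in clusters 5, 6 and 9 its ratio was between 0.979 and 1.73. When fibroblast-like cells were limited to these 3 clusters, the Bmp2 ratio was 1.41 and the Chrdl1 ratio 0.565, an alternative chosen with the results in view. Within each of the 3 clusters the Chrdl1 ratio was between 0.190 and 0.492, past 2-fold, and the libraries hold different shares of the 3. Id3 was higher in the adult pulse in all 11 classes, by 1.13-fold to 2.69-fold. Among the 7 fibroblast-like clusters, however, Id3 was higher in 5 and lower in 2, with ratios from 0.527 to 1.80. Inhbb was higher in 6 of these clusters and lower in 1, and Ltbp2 higher in 2 and lower in 5.

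**Figure D5:**
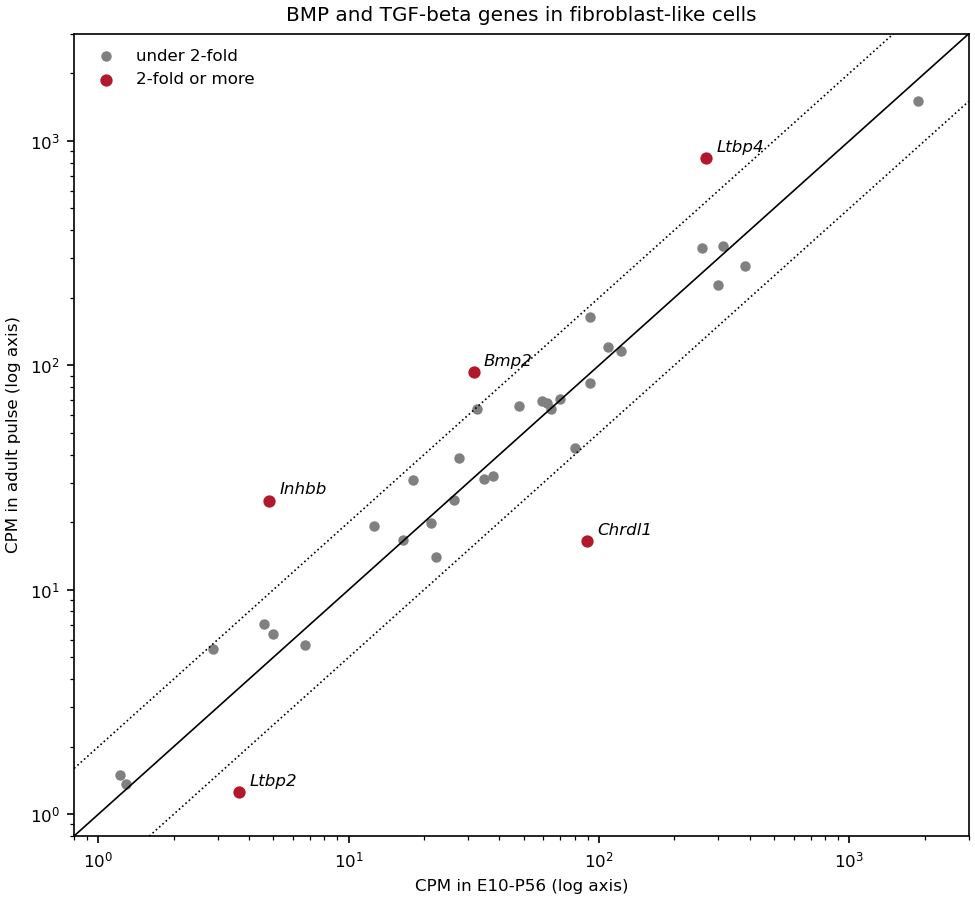
CPM in fibroblast-like cells of E10-P56 (horizontal, log axis) and the adult pulse (vertical, log axis) for the 36 genes with at least 100 UMIs there; the solid line marks equal levels and dotted lines 2-fold. Inhbb, Ltbp4 and Bmp2 lie above the upper dotted line and Chrdl1 and Ltbp2 below the lower one.

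In SMCP-like cells 6 of 18 members were at least 2-fold higher in the adult pulse (2.77% of all genes): Bmp5, Fst, Ltbp4, Id2, Id3 and Id4. Id4 had a ratio of 3.09 (2.70 to 3.54) and Id3 of 2.37 (2.19 to 2.58), and Tgfb1 was lower (4.98%). The SMCP-like cells had a median of 8824.5 UMIs for E10-P56 and 4790 for the adult pulse. Their VSMC markers summed to 8912 and 8120 CPM, their pericyte markers to 9148 and 7844 CPM and their fibroblast markers to 6278 and 3985 CPM, and the part of these differences was not tested. In pericyte-like cells 4 of 15 were higher (2.09%), namely Fst, Ltbp4, Id1 and Id3, and none was lower (1.13%). Fibroblast markers there summed to 5285 CPM in E10-P56 and 9476 CPM in the adult pulse. In osteochondral-like cells Ltbp2 and Id1 were lower among 12 members tested (4.17%) and none was higher (4.11%), and tenocyte markers summed to 6102 and 2624 CPM and osteochondral markers to 3917 and 1943 CPM. In tenocyte-like cells Inhba and Fst were higher (3.17%) and Tgfbr3 and Chrdl1 lower (5.25%) of 25. In VSMC-like cells Ltbp4 and Id3 were higher (2.9%) and 7 of 16 lower (11.9%), namely Inhba, Tgfb2, Tgfb3, Tgfbr2, Fst, Ltbp1 and Id2, with 28 adult cells behind the values. VSMC markers there summed to 37955 and 22207 CPM and pericyte markers to 4117 and 7404 CPM. In perineurial-like cells Chrdl1 alone was lower of 10 (7.13%) and none was higher (2.01%). In endoneurial-like cells Bmpr1a and Ltbp4 were higher of 13 (3.38%) and none was lower (3.42%), with fibroblast markers at 25078 and 40592 CPM. In Schwann-like cells Ltbp4 was higher (3.05%) and Fstl3 and Chrdl1 lower (9.37%) of 9, with Schwann markers at 41727 and 17979 CPM and fibroblast markers at 6072 and 10324 CPM. In endothelial-like cells Ltbp4 was higher of 3 (9.15%) and none was lower (0.915%), with pericyte markers at 8323 and 1734 CPM and fibroblast markers at 4137 and 9575 CPM. In cycling-like cells 6 of 26 were higher (9.75%) and 8 lower (9.99%), Inhba by the ratio of 0.0632 among them. Cycling markers there summed to 735 and 3465 CPM, tenocyte markers to 263 and 2786 CPM and fibroblast markers to 33911 and 21641 CPM, and 49 and 8 cells were cycling-like when each cell was classed by its own marker UMIs. The part of these marker differences in the changes of each class was not tested.

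Of 88 other genes of the pathway listed, 86 were found and 54 had at least 100 UMIs in both libraries. The same class was highest and at least 2-fold over the next in both libraries for 7 of 54, beside 5.66% of all genes. By role these were 1 of 7 ligands, 2 of 7 receptors and co-receptors, 0 of 13 Smads and Smad regulators, 1 of 9 antagonists, 2 of 11 genes of latency, storage and activation and 1 of 7 targets. Mstn, the muscle growth inhibitor myostatin, was highest in tenocyte-like cells, at 176 and 67.7 CPM. Acvrl1 and Eng, a type I receptor and a co-receptor of vessels, were highest in endothelial-like cells, at 339 and 161 CPM and at 532 and 570 CPM. Nbl1, a BMP antagonist, was highest in perineurial-like cells, at 1330.3 and 2821 CPM. Among the classes these cells also held the highest Chrdl1 and Bmp3, although a single fibroblast-like cluster held more Bmp3. The antagonists Fst, Fstl1 and Bmper were 2-fold or more lower there than in fibroblast-like cells. Itgb8, an integrin chain that can activate latent TGF-beta, was highest in Schwann-like cells, at 175 and 178 CPM. Fmod, a small proteoglycan of tendon, was highest in tenocyte-like cells, at 5203 and 3674 CPM, and Dlx5, a homeobox gene of bone, in osteochondral-like cells, at 139 and 258 CPM.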

How the data were processed

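The deposited files held raw UMI counts per gene and barcode, made by the authors with Cell Ranger 5.0.0 (E10-P56) and 3.0.2 (adult pulse) on a modified mm10 genome, without normalization. Ltbp4 was listed for 2 features, 1 of them at 0 UMIs and not used. The members, marker lists and pathway list were chosen with earlier results of these data known.

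Cells with at least 1500 UMIs, as in the paper, and at most 10% mitochondrial UMIs, a limit chosen here, were kept. Doublets were kept in (an alternative left out the 5% of cells with the highest Scrublet scores, scanpy 1.11.5). After log-normalization, 2000 variable genes without the members and pathway genes gave 30 principal components, a graph of 20 neighbours and 20 Leiden clusters at a resolution of 0.5 (leidenalg 0.10.2, python-igraph 0.11.9, scikit-learn 1.9.0). A class needed 3 markers, each in 10% of cells with a log2 fold of 1. Leading genes were ranked with 20 CPM added, a value set after clusters had stayed unnamed with 5. Members were named in full when 1 class led in both libraries, by 2-fold in 1 or both, or when fibroblast-like cells differed by 2-fold between libraries; values on other members were added for a complete account. A class needed 20 cells and a gene 100 UMIs, and 0 UMIs were taken as 3 counts in ratios. Shares were taken after thinning to 1500 UMIs. Promoters came from RefSeq (GRCm38.p6), 28 of 38 members being matched by symbol. The naming of classes and the ratio between libraries were run on simulated cells. The ratio was taken on the simulated classes, so errors of naming do not enter it. In a first simulation, with genes changed in every class, cycling cells split by library and stayed unnamed, so changes were then placed in fibroblasts alone. That setting does not cover genes that differ in every class. Both simulated libraries were drawn from E10-P56 profiles, with more cells per class than the smallest real classes hold. Naming and ratios in those small classes are therefore not covered either.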

Additional observations from a re-analysis of the deposited data

Results flagged for a closer look

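Bmp2 and Fstl3 went opposite ways from fibroblast-like cells in the 2 libraries, in 1 class each. Bmp2 in endothelial-like cells was 2.69 times the fibroblast-like level in E10-P56, on 7 UMIs, and 0.153 times that level in the adult pulse, on 3 UMIs. The levels were 84.7 CPM (34.0 to 174) and 14.2 CPM (2.94 to 41.6), beside 31.5 and 93.2 CPM in fibroblast-like cells. Fstl3 in cycling-like cells was 5.87 times the fibroblast-like level in E10-P56, on 281 UMIs, and 0.270 times that level in the adult pulse, on 1 UMI. The levels were 29.2 CPM and 1.72 CPM (0.0435 to 9.58), beside 4.98 and 6.37 CPM in fibroblast-like cells, and the adult interval reaches above the fibroblast-like level. The cycling-like cells also differed in makeup. Their cycling markers summed to 735 CPM in E10-P56 and 3465 CPM in the adult pulse, and their tenocyte markers to 263 and 2786 CPM. Of 326 such cells in E10-P56 the class kept 49 with cells classed singly, and none with that library clustered alone. The Fstl3 values therefore do not compare like cells. These differences between libraries were not tested.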

How the results depend on the processing

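No paired analysis was possible because each labelling time had 1 library and no result comes from a test. Nor could a replicate be left out. Of 70 pairs of member and library, the highest class was that of the report for 46 when each library was clustered alone and for 38 when each cell was classed by its own marker UMIs. Pairs of member and class past 2-fold against fibroblast-like cells numbered 138, and 85 with a mitochondrial limit of 5%, 79 with each library alone, 79 with cells classed singly and 73 when a class needed 50 cells. Pairs past 2-fold between libraries numbered 52, and 27 with cells classed singly and 24 with 50 cells. In fibroblast-like cells the 5 members past 2-fold became 8 with each library alone and 8 with cells classed singly. Members with the same highest class in both libraries fell from 18 to 11 with 50 cells. The counts under the alternatives were made for the members only. No share of all genes stands beside them, so shifts particular to the members cannot be told from shifts of all genes. Of 14 levels of the 7 named members, 5 stayed within 1.5 times with the limit of 5%, and 9 with a resolution of 1.0, with each library alone and with cells classed singly. Under these settings some classes lost their name or most of their cells. Osteochondral-like and SMCP-like cells numbered 0 with the limit of 5%, and osteochondral-like cells 3 and 1 with cells classed singly. Endoneurial-like cells numbered 2 and 3 with cells classed singly, and 0 in the adult pulse with each library alone. With each library alone, osteochondral-like and cycling-like cells of E10-P56 and SMCP-like cells of the adult pulse also numbered 0. The ratios between libraries in fibroblast-like cells of Bmp2, Inhbb, Chrdl1, Ltbp2 and Ltbp4 kept their direction under the 12 settings, of which 2, the minimum of 50 cells and the clusters holding both libraries, were chosen only after seeing the data. Depth limits the smallest classes: 3 counts in the 20 endothelial-like cells of E10-P56 equal 36.3 CPM.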
